A study of Mus musculus with 24 samples.

Results

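Mice that had met a new chamber or a foot shock without a chance to link the 2 were compared with mice that had only been handled. Of the 24 hippocampal arrays of the study, 12 entered: the 4 context arrays and the 4 shock-context arrays, pooled as 8 exposed arrays, and the 4 arrays of handled controls. The arrays were chosen by their titles, and a probe was kept where the scanner software marked it well above background on all 12. All 12 mice were C57Bl/6 aged 3 months, and each array held the hippocampal RNA (600 ng) of 1 mouse, so the replicates were separate animals. Context mice explored the chamber of the fear-conditioning test with no shock. Shock-context mice were shocked on being placed in the chamber and only then explored it. In the fear-conditioning test itself, which these mice did not undergo, 3 min in the chamber ended in a shock of 0.7 mA for 2 s. The protocols give tissue collection at 1 h after treatment, and controls were kept alike but saw neither chamber nor shock. The exposed arrays lay on slides 5 and 6 of a second scan run and the control arrays on slides 1 to 4 of a first run, 1 per slide, so exposure and scan run cannot be told apart in any value below.

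Neurons that fire strongly switch on immediate early genes within minutes. The first wave encodes transcription factors such as the AP-1 subunits (Fos and Jun families), the Egr zinc-finger proteins and the Nr4a nuclear receptors, and further genes such as Arc and Homer1 encode proteins that act at synapses. Handling, novelty and shock also raise circulating glucocorticoids, whose receptor binds DNA and induces genes such as Sgk1, Fkbp5, Tsc22d3 and Per1. Per1 is at the same time a core gene of the circadian clock, in which Clock and Arntl activate, and the Per and Cry proteins repress, a shared set of promoters.

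On the 12 arrays 29661 of 41174 probes were kept, and 15629 genes with a symbol had a kept probe. Exposed and control arrays differed at 67.2% of probes by limma with Benjamini-Hochberg adjustment (adjusted p under 0.05), 33.7% higher and 33.5% lower, and by a log2 change of 1 or more at 20.2%, 10.2% higher and 9.97% lower. The 2 sides differed in several measures. The 75th percentile of signal was 892 to 1361 on control arrays and 3101 to 8369 on exposed arrays, and 88.7 to 91.5% against 75.04 to 81.4% of probes were well above background. Correlations of arrays over kept probes were 0.981 to 0.993 among controls, 0.979 to 0.998 among exposed arrays and 0.903 to 0.965 between the sides. For these reasons the results rest on differences between related genes within an array and on genes whose separate probes all moved by 1 or more. The part of the scan run in any of them was not tested. In bulk tissue, fewer cells of a type and less RNA per cell cannot be told apart.

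Promoter windows of 3 genes that the results turn on, Fos, Per1 and Sgk1, are printed because each carries some of the short elements through which activity and glucocorticoids are known to act. Each window runs from 250 bases before to 50 bases after a start site, in RefSeq GRCm38.p6, 5′ to 3′ on the gene's strand. Capitals mark the core of a cyclic AMP response element (TGACG), an E-box of the clock activators (CACGTG) or a glucocorticoid receptor hexamer (AGAACA), each searched on both strands.
Fos, chr12:85473640-85473939, plus strand: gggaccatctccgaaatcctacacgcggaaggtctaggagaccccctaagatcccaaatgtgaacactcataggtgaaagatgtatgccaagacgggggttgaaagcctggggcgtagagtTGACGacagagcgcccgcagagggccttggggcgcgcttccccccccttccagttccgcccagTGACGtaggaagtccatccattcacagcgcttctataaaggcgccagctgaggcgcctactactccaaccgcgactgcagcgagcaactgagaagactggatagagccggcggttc
Per1, the first of 2 listed start sites, chr11:69098699-69098998, plus strand: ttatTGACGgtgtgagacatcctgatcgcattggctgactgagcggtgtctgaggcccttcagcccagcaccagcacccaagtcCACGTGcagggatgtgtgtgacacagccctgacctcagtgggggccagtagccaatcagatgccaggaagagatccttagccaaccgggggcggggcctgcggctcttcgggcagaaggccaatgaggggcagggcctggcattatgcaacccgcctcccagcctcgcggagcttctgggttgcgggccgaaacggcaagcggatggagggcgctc
Sgk1, the fifth of 6 listed start sites, chr10:21993640-21993939, plus strand: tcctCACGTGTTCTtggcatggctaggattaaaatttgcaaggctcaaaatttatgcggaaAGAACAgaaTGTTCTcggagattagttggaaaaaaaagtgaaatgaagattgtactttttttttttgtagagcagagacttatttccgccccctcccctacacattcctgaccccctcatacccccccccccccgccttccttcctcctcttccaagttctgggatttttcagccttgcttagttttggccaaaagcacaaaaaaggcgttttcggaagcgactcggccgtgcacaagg
The Fos window holds 2 TGACG matches. The Per1 window holds 1 TGACG and 1 CACGTG. Neither window holds the glucocorticoid receptor hexamer, and the Sgk1 window holds no TGACG. The Sgk1 window holds 3 such hexamers, the first sharing bases with its E-box, and the other two face each other with 3 bases between them. The windows of the other Sgk1 start sites hold 0 or 1 hexamer each and no such pair. That paired form, AGAACA followed after 3 bases by TGTTCT, stood in 3 of 32851 promoter windows (0.00913%), those of Sgk1, Acnat2 and Gm35041. TGACG stood in 20.8% of windows, AGAACA in 18.97% and CACGTG in 7.15%. A match is a description of letters, not of binding.

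The early transcription factors did not move as a block. Of the 33 listed genes of the Egr, Nr4a and other early factors 32 were kept, each read on its brightest probe. This list and those below were written with earlier results of these data known. By limma's adjusted p 16 were higher (50%) and 5 lower, where 24% of all genes with a symbol were higher and 40.1% lower. In total 65.6% of the list was called, against 64% of all genes. By a change of 1 or more 3 were higher and 0 lower, where 4.04% of all genes were higher and 10.2% lower (14.3% called). The median change of the list was 0.31 on the log2 scale against -0.11 over all genes. Centring each array within bins of probe GC content, an alternative chosen after seeing the data, gave 15 higher and 7 lower.

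Fos, an AP-1 subunit, had log2 signals of 8.53, 8.30, 9.12 and 9.51 on the 4 control arrays and a lowest, median and highest value of 10.09, 10.57 and 11.02 on the exposed arrays. Every exposed array lay above every control array. The sides did not overlap, in 1 direction or the other, at 47.1% of all kept probes. That share stands beside each such statement below. The change was 1.69 ± 0.21 (SE), or 3.23-fold higher (limma adjusted p = 8.06e-06), on a probe at chr12:86817900-86817959 (mm9, plus strand). Centred by GC content it was 1.27, the lowest value over all alternatives. Egr2, a zinc-finger factor, read 9.11, 9.46, 9.82 and 9.81 on control arrays and 10.82, 11.12 and 11.46 (lowest, median, highest) on exposed arrays, again without overlap. Its change was 1.59 ± 0.15, or 3.02-fold (limma adjusted p = 8.66e-07; chr10:67004758-67004817, mm9, plus strand). Nr4a2, an orphan nuclear receptor, read 12.68, 12.56, 12.71 and 12.97 on control arrays and 13.16, 13.72 and 14.07 on exposed arrays. The sides stood apart with a narrow gap, and the change was 0.97 ± 0.15 (limma adjusted p = 5.76e-05).

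Several of the best-known early genes gave small or opposite values. Egr1, a widely used marker of neuronal activity, read 14.34, 14.37, 13.98 and 14.57 on control arrays and 14.52, 14.95 and 14.97 on exposed arrays, and the sides overlapped. Its change of 0.51 ± 0.12 passed the test (limma adjusted p = 0.00215) but became 0.09 (adjusted p = 0.461) after centring by GC content. Arc, which encodes a cytoskeletal protein of dendrites, ranged from 13.69 to 15.01 on control arrays and from 14.16 to 14.97 on exposed arrays, with a change of 0.27 ± 0.25 that did not pass (limma adjusted p = 0.336), although the GC-centred value of 0.70 did (adjusted p = 0.0147). Nr4a1 changed by 0.27 ± 0.13 (adjusted p = 0.0806) and passed at 0.39 when control replicate 3 was left out (adjusted p = 0.0143). Egr3 changed by -0.03 ± 0.13 (adjusted p = 0.843). Npas4, a factor that is known to depend on neuronal activity, was lower: 9.66, 9.34, 10.42 and 9.85 on control arrays, and 8.86, 9.01 and 9.20 on exposed arrays. No exposed array reached the lowest control, and the fall was -0.81 ± 0.15 (limma adjusted p = 0.000279). Tob1 (0.84 ± 0.14) and Atf3 (0.46 ± 0.14) rose. Ier2 rose by 0.60 ± 0.15 on its brighter probe and fell by 0.85 ± 0.22 on the other, while Klf6 fell by 0.69 ± 0.09 on its brighter probe and rose by 0.87 ± 0.16 on the other.

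**Figure D1:**
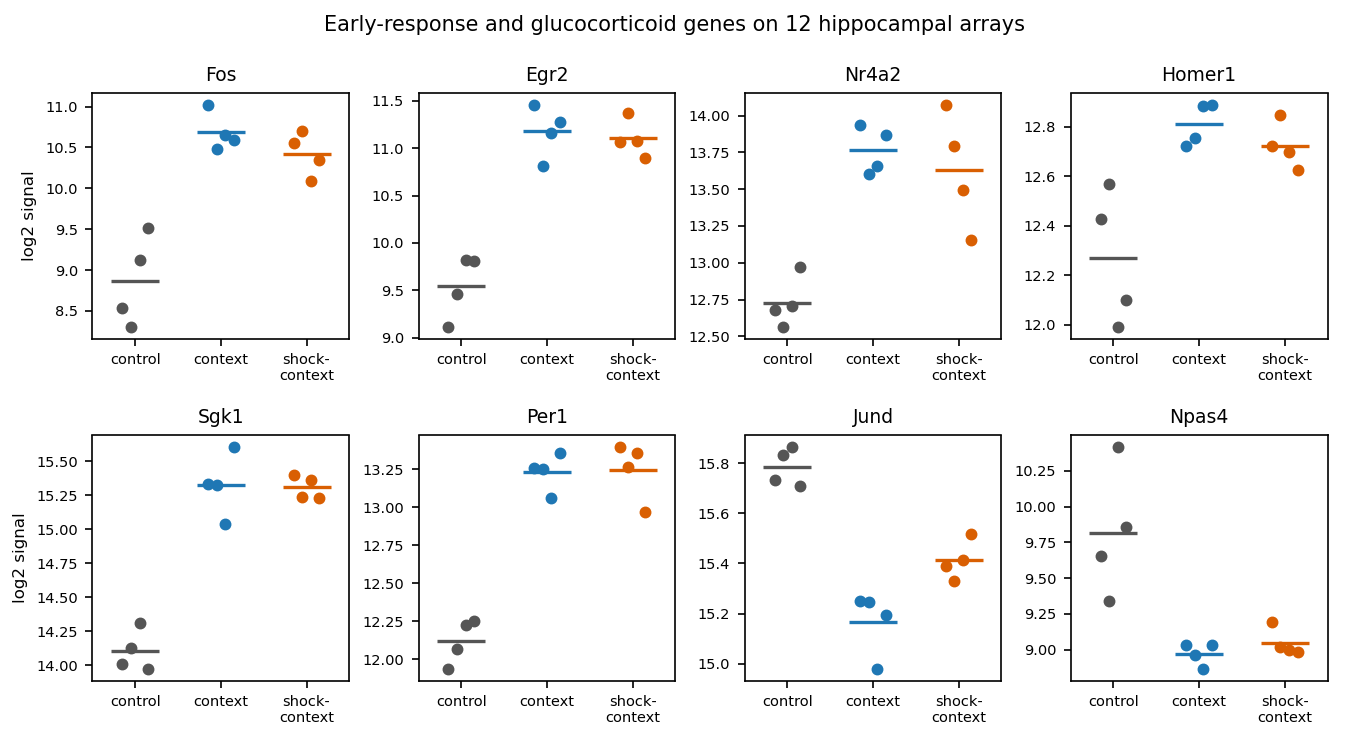
Log2 signal (vertical axis) of Fos, Egr2, Nr4a2, Homer1, Sgk1, Per1, Jund and Npas4, each on its brightest probe, by group (horizontal axis); a point is 1 array and a bar the group mean. Fos, Egr2, Nr4a2, Sgk1 and Per1 lay higher on all 8 exposed arrays than on any control, and Jund and Npas4 lay lower. Of all kept probes 47.1% had no overlap of the sides.

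Within the AP-1 family all 12 listed members were kept, and 3 were higher (25%) and 5 lower (41.7%), near the shares of all genes (24% and 40.1%). Fosb, the closest relative of Fos on the list, read 9.52, 9.24, 9.69 and 9.66 on control arrays and 7.89, 8.48 and 9.03 on exposed arrays, and fell by 1.02 ± 0.19 (limma adjusted p = 0.000296). Jund, the Jun family member that cells express without stimulation, read 15.73, 15.83, 15.87 and 15.71 on control arrays and 14.98, 15.29 and 15.52 on exposed arrays, a fall of 0.49 ± 0.10 (limma adjusted p = 0.000411). Both fell without overlap. Jun itself changed by -0.04 ± 0.09 (adjusted p = 0.748). Junb rose by 0.97 ± 0.16 on a probe of 30% GC and by 0.59 ± 0.12 on its other probe. The first became 0.20 (adjusted p = 0.352) after centring by GC content. Fosl2 gave 0.23 ± 0.15 on its brighter probe, which did not pass (adjusted p = 0.189), and -1.12 ± 0.47 on the other (adjusted p = 0.0466).

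Genes for synaptic and signalling proteins that follow activity showed the same mixture. Of all genes with a symbol 24% were higher and 40.1% lower (64% called). Of 43 listed genes 41 were kept, 18 higher (43.9%) and 8 lower (19.5%), 63.4% called in total, with a median change of 0.27. GC centring gave 17 higher and 13 lower with a median of 0.08. Homer1, a postsynaptic scaffold with a short activity-induced form, rose on all 3 of its probes, by 0.91 ± 0.15, 0.74 ± 0.10 and 0.50 ± 0.11 (limma adjusted p = 0.000138, 2.34e-05 and 0.000903). The third, which lies farthest from the start of the gene, became 0.08 after GC centring (adjusted p = 0.355). Bdnf, a secreted neurotrophin, rose by 0.35 ± 0.09 and 0.54 ± 0.09 on its 2 probes, the second becoming 0.12 after GC centring. Spry4, a feedback inhibitor of receptor kinases, rose by 1.30 ± 0.25 on a probe of 20% GC and by 0.30 after GC centring. Sik1, a kinase, rose by 0.82 ± 0.11, Rgs4, a brake on G-protein signalling, by 0.68 ± 0.17 and Scg2, a secretory granule protein, by 0.52 ± 0.11. Pdyn, the opioid peptide precursor of dentate granule cells, fell by 0.90 ± 0.09, and the kinase gene Pim1 by 1.03 ± 0.14. Dusp1, a phosphatase that switches off MAP kinases, changed by 0.32 ± 0.11 (limma adjusted p = 0.024), a call lost under 8 of the 29 alternatives. The MAP kinase phosphatases as a list had 5 higher (45.5%) and 4 lower (36.4%) of 11 kept. They were led by falls of Dusp9 (1.30 ± 0.17) and Dusp3 (1.07 ± 0.14) and rises of Dusp7 (0.90 ± 0.18) and Dusp14 (0.72 ± 0.11 on the probe of smaller p).

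Among 26 listed glucocorticoid-induced genes 24 were kept, and 11 were higher (45.8%) and 6 lower (25%), with a median change of 0.17. In total 70.8% of them were called, against 64% of all genes (24% higher and 40.1% lower). Sgk1, the serum- and glucocorticoid-regulated kinase of which 1 promoter window is printed above, read 14.01, 14.13, 14.31 and 13.97 on control arrays and 15.04, 15.33 and 15.61 on exposed arrays. The lowest exposed array lay clear of the highest control. The rise was 1.21 ± 0.10, or 2.32-fold (limma adjusted p = 3.55e-07), on a probe at chr10:21719390-21719449 (mm9, plus strand), and 1.01 to 1.27 over the alternatives. A second Sgk1 probe, at chr10:21618550-21618609, was well above background on 4 control and 0 exposed arrays and was not kept. By the lowest detectable signal it was at least 1.34-fold lower on exposed arrays. Tsc22d3, which encodes the glucocorticoid-induced leucine zipper, rose on all 3 of its probes, by 0.37 ± 0.12, 0.80 ± 0.14 and 1.03 ± 0.10. Klf9, a factor induced by steroid and thyroid hormones, rose by 1.13 ± 0.16 and 0.55 ± 0.13 on its 2 probes. Fkbp5, a co-chaperone that restrains the glucocorticoid receptor, rose on 1 probe (0.61 ± 0.12, adjusted p = 0.000392) and not on the other two (0.06 ± 0.12 and 0.15 ± 0.13). Nfkbia, an inhibitor of NF-kappaB, rose by 0.84 ± 0.14, Plin4, a lipid droplet coat protein, by 0.83 ± 0.12 and Arrdc2 by 0.67 ± 0.14.

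Other glucocorticoid targets fell. The metallothionein gene Mt2 fell by 0.70 ± 0.11 (limma adjusted p = 5.37e-05), Pdk4, a brake on glucose oxidation, by 0.65 ± 0.09 and Hif3a, a hypoxia-inducible factor, by 1.75 ± 0.25 on its brighter probe. Mt1 gave -0.39 ± 0.10 on a probe of 68.3% GC (adjusted p = 0.00381), which turned to 0.42 after GC centring, and 0.03 ± 0.14 on the other (adjusted p = 0.856). Within the arrays, Mt2 less Mt3 differed between the sides by 0.10 (adjusted exact permutation p = 0.459). After GC centring that difference was -0.60 (adjusted exact permutation p = 0.0103). The receptor gene Nr3c1 changed by less than 0.01 on its brightest probe and by -1.77 ± 0.19, 1.00 ± 0.13 and 0.56 ± 0.09 on the others.

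All 23 listed clock genes were kept, 11 higher (47.8%) and 3 lower (13.0%), with a median change of 0.25 that stayed at 0.22 after GC centring (8 higher, 4 lower). In total 60.9% of them were called before centring, against 64% of all genes (24% higher and 40.1% lower). Per1 read 11.93, 12.07, 12.23 and 12.25 on control arrays and 12.97, 13.26 and 13.40 on exposed arrays. The groups did not overlap, and the rise was 1.12 ± 0.10, or 2.17-fold (limma adjusted p = 4.70e-07; chr11:68922878-68922937, mm9, plus strand). Cry1, a repressor, read 6.73, 6.77, 6.63 and 6.499 on control arrays and 7.93, 8.15 and 8.29 on exposed arrays. It rose by 1.46 ± 0.09 there (limma adjusted p = 3.17e-08) and by 1.38 ± 0.24 on a brighter probe of 23.3% GC, which gave 0.38 after GC centring (adjusted p = 0.077). Ciart, a repressor of Clock and Arntl, rose by 1.03 ± 0.16 on a probe of 25% GC. Arntl fell by 0.46 ± 0.07. Csnk1e, a kinase that marks Per proteins for decay, rose by 0.81 ± 0.14 on its brighter probe.

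A difference between related genes on the same array does not move with a constant scaling of that array, though quantile normalization is not constant and 14 in place of 16 pairs passed under 75th percentile or median scaling. A list of 63 such pairs was written with earlier results of these data known, so the p-values below are not an independent test of them. Of the 63 pairs 61 could be measured. In each, the values over the 12 arrays were tested by an exact two-sided permutation over all 495 assignments, adjusted over the pairs. The smallest p this allows is 0.00202, which is 0.00373 once adjusted. Of the 61 measured pairs 45 had an adjusted p under 0.05, against 67.2% of single probes called. Of these, 16 also differed by 1 or more with the same sign on every combination of probes. Among single probes 20.2% were called with a change of 1 or more. How many pairs of unrelated genes would pass was not tested. In 35 of 61 pairs the sides did not overlap, against 47.1% of single probes. After GC centring 10 pairs passed, 9 of them among the 16. Normexp background correction also left 10, and the deposited values 9. Levels of 2 probes are not comparable, so only the change of each difference is read.

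Fos less Jund was -7.20, -7.53, -6.75 and -6.20 on control arrays and -5.32, -4.70 and -4.23 (lowest, median, highest) on exposed arrays. The sides stood well apart, by 2.19 between means (adjusted exact permutation p = 0.00373), and by 1.69 after GC centring. Fos less Fosl2 moved from -2.31, -2.23, -0.30 and -1.72 to 0.02, 0.45 and 1.11, a difference of 2.13 with combinations of probes from 1.46 to 2.81. Control replicate 3 lay nearest to the exposed arrays. Junb less Jund moved from -1.77, -1.57, -1.21 and -1.25 to -0.49, -0.28 and 0.38, a difference of 1.27, and 0.85 after GC centring. Fos thus gained on both relatives, and Junb on Jund, in every exposed array (each with the smallest p the test allows).

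Egr1 less Egr2 was 5.23, 4.91, 4.16 and 4.77 on control arrays and 3.49, 3.69 and 3.90 on exposed arrays, without overlap. The difference narrowed by 1.08, with a rise of 0.51 for Egr1 against 1.59 for Egr2, and by 1.58 after GC centring. Egr1 less Egr4 did not pass, with a difference of -0.03 (adjusted exact permutation p = 0.906). Nr4a1 less Nr4a2 differed by -0.69 (adjusted exact permutation p = 0.00649) with overlapping sides, under the size set for a pair to pass. Homer1 gained 1.37 on Homer3, over 11 arrays because 1 context array lacked the Homer3 probe (adjusted exact permutation p = 0.00544), and 1.03 on Homer2, where combinations of probes ran from 0.09 to 1.96 and GC centring gave 0.74, under the size set to pass. The 2 paralogs encode constitutive scaffolds of the family. Homer1 was averaged over all its kept probes, so its short activity-induced form was not read apart.

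Sgk1 less Sgk3, a kinase of the same family, was 5.63, 5.78, 6.20 and 5.86 on control arrays and 6.60, 6.99 and 7.35 on exposed arrays. The difference of 1.14 was the same after GC centring. It fell to 0.46 (adjusted exact permutation p = 0.0977) when probes above background on 4 or more arrays entered, which brings in the dim second Sgk1 probe and a further Sgk3 probe, and to 0.44 with no filter (adjusted exact permutation p = 0.116). Per1 gained 1.88 on Per2, from 1.91, 2.05, 1.83 and 2.17 to 3.44, 3.88 and 4.09, but the combinations of probes ran from 0.14 to 3.62, since the 2 Per2 probes moved in opposite directions. Cry1 gained 1.23 on Cry2 (0.47 after GC centring), and Clock 1.07 on Arntl (0.63). Nr1d1 lost 1.72 against Nr1d2, both repressors of Arntl, and 0.82 after GC centring.

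Pairs of chromatin and glial genes also passed. Kat6b lost 1.51 against Kat6a, both histone acetyltransferases, and 1.99 after GC centring. Hdac4 less Hdac5, both class IIa histone deacetylases, was tightly grouped at -3.93, -3.94, -4.01 and -4.00 on control arrays and at -3.04, -2.90 and -2.77 on exposed arrays. This gain of 1.07 came with a rise of 1.10 ± 0.09 for Hdac4 against 0.03 ± 0.07 for Hdac5 (the latter adjusted p = 0.717), and was 1.42 after GC centring. Slc1a3 gained 1.11 on Slc1a2, the 2 glutamate transporters of astrocytes, with combinations of probes from 0.00 to 1.73, and 0.82 after GC centring, under the size set to pass. Nptx2 less Nptx1, secreted pentraxins of synapses (-1.05), and Grm3 less Grm2, group II glutamate receptors (-1.04), also passed. Nptx2 less Nptx1 turned to 0.03 after GC centring (adjusted exact permutation p = 0.891), the Nptx1 probe having 25% GC. Grm3 less Grm2 overlapped between the sides and became -0.65 under scaling by the 75th percentile or the median (adjusted exact permutation p = 0.107). Pairs of panel genes that did not pass were Gfap less Vim (0.01), Prkca less Prkcb (-0.02), Fmn2 less Fmn1 (-0.12) and Mt2 less Mt3.

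**Figure D2:**
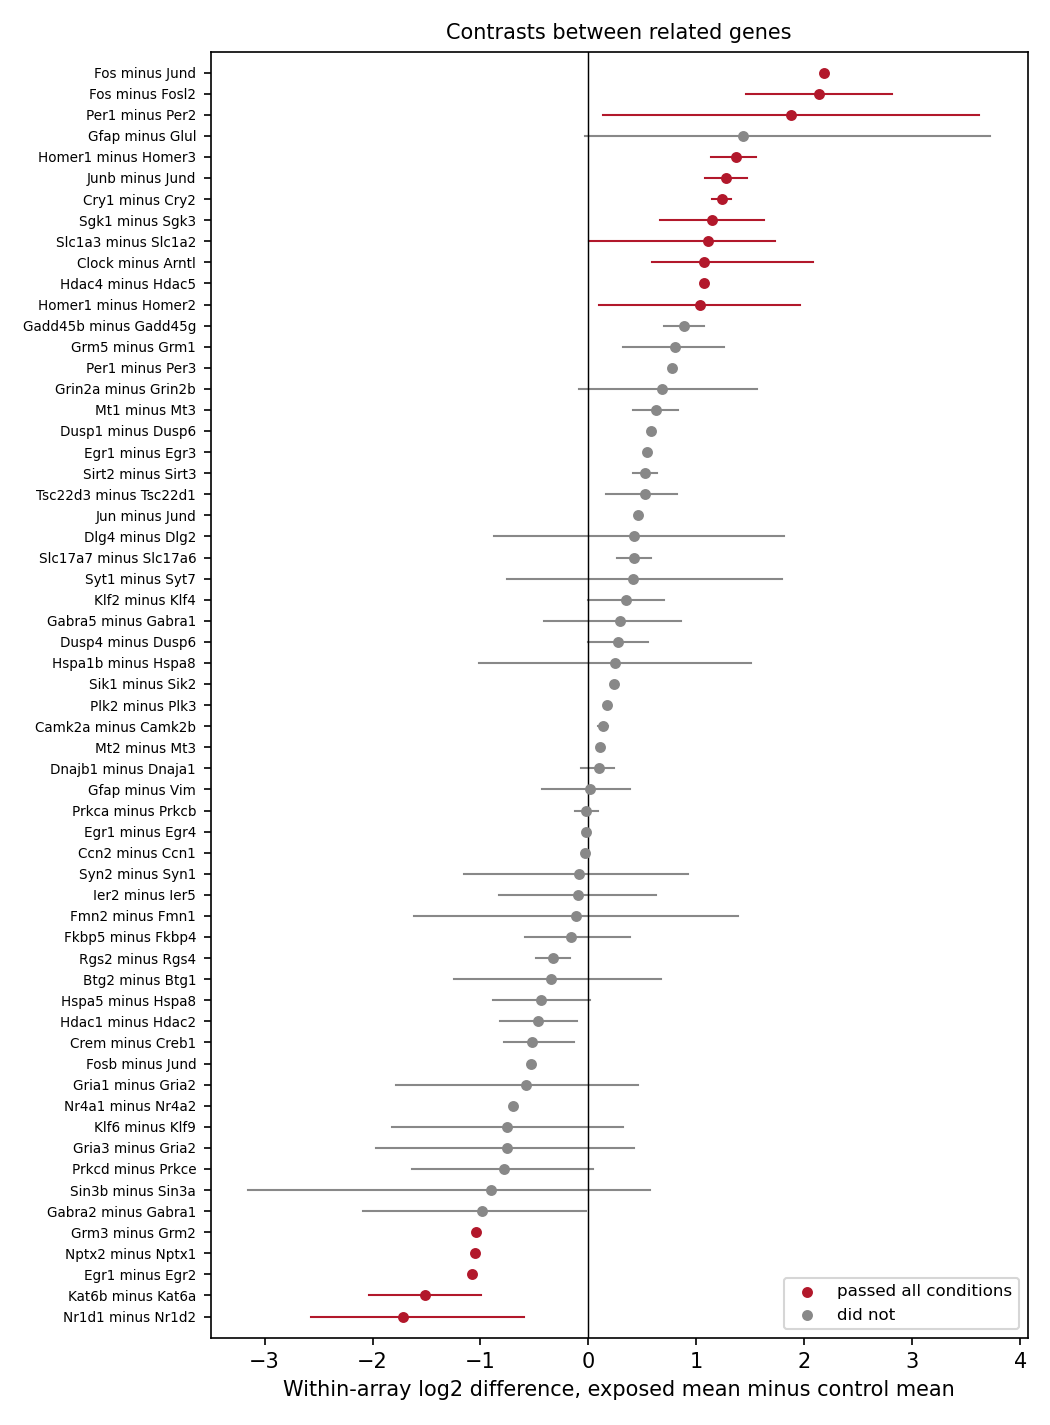
Change of the within-array log2 difference between related genes, exposed mean minus control mean (horizontal axis), for pairs measured (vertical axis). Points are the change over all kept probes, red where the pair passed every condition, and lines the range over combinations of probes; Fos less Jund (2.19) and Fos less Fosl2 (2.13) had the largest rises and Nr1d1 less Nr1d2 (-1.72) the largest fall.

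Genes with 2 or more kept probes numbered 6771, and 118 of them (1.74%) had every probe called with a change of 1 or more in 1 direction, 54 higher (0.798%) and 64 lower (0.945%). Only 2 probes were kept for 48 of the former and 62 of the latter. Of single kept probes 10.2% were higher and 9.97% lower by 1 or more, so unrelated probes would also agree in some genes. Whether 1.74% exceeds such agreement was not tested. Probes of a gene often disagreed. Of 2519 genes with every probe called, 1026 (40.7%) had probes of opposite sign. The split of the 118 depended on scaling: 45.8% were higher, against 18.4% of 158 under 75th percentile scaling, 17.8% of 157 under median scaling, 69.1% of 152 with quantile normalization over all probes and 65.5% of 55 in the deposited values. After GC centring 79 genes passed, 56 of them among the 118. Normexp background correction gave 56 genes, 47 of them among the 118. In 11 of the 117 genes with mapped positions, probes overlapped in sequence and so were not separate readings.

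The largest rise was that of Laptm5, a lysosomal membrane protein of blood-lineage cells and microglia. Its first probe read 7.82, 7.95, 8.45 and 8.18 on control arrays and 9.68, 10.22 and 10.41 on exposed arrays (change 2.09 ± 0.14). Its second read 7.20, 6.96, 7.75 and 7.77 on control arrays and 10.19, 10.83 and 11.09 on exposed arrays (change 3.36 ± 0.17, or 10.3-fold). The 2 probes lie at chr4:130490785-130490844 and chr4:130490893-130490952 (mm9, plus strand), and on both every exposed array stood above every control. Shock-context replicate 4 was the exposed array nearest to the controls on both. Npat, a regulator of histone gene transcription, rose by 2.31 ± 0.17 and 2.33 ± 0.14 on its 2 probes. The first read 5.89, 6.03, 6.46 and 6.22 on control arrays and 7.70, 8.53 and 8.79 on exposed arrays, and the second 9.54, 9.73, 10.19 and 10.21 against 11.81, 12.26 and 12.46. The probes of Npat and of Olfr291 are printed because they show how separate the 2 readings of a gene are; the first Npat probe joins 2 blocks of the genome (chr9:53375116-53378037).
Npat, first probe: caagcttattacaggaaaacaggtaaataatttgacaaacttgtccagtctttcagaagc
Npat, second probe, chr9:53379164-53379223: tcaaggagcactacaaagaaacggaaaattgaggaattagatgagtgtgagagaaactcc
Olfr291, first probe, chr7:92005604-92005663: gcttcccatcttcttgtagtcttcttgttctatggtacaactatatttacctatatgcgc
Olfr291, second probe, chr7:92005247-92005306: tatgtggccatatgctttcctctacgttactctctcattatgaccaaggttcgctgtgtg
All 4 lie on the plus strand of mm9.

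The other leading rises were Bbof1, a basal body factor of ciliated cells (2.26 ± 0.18 and 2.41 ± 0.19), Tet2, an enzyme that oxidises 5-methylcytosine (1.59 ± 0.18 and 2.89 ± 0.19), Jakmip3 (1.46 ± 0.18 and 2.74 ± 0.15), Etnppl, an astrocyte enzyme of phosphoethanolamine breakdown (1.16 ± 0.11 and 2.97 ± 0.09), Ankrd26 on 5 probes (1.31 to 2.89) and Gtpbp4, a nucleolar GTPase of ribosome assembly (1.20 ± 0.17 and 2.66 ± 0.17). The largest adjusted p over all their probes was 7.99e-05 (limma). Of the 8 leading rises, Ankrd26 did not pass after GC centring, and Jakmip3 and Etnppl did not pass with normexp correction.

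The 8 leading falls included genes best known from other tissues. Olfr291, an odorant receptor, fell by 3.16 ± 0.19 and 3.00 ± 0.22 (8.45-fold over the mean of its probes). Cyp2c37, a liver cytochrome, fell by 2.76 ± 0.36 and 2.19 ± 0.25, and Cyp27b1, which activates vitamin D in the kidney, by 2.80 ± 0.16 and 1.65 ± 0.20. Dmbx1, a developmental homeobox gene, fell by 3.41 ± 0.25 and 1.35 ± 0.19, Fv1, a retrovirus restriction gene, by 2.62 ± 0.16 and 2.10 ± 0.15, Cytip, a leukocyte adaptor, by 2.99 ± 0.29 and 1.59 ± 0.24, and Mapk15, an atypical MAP kinase, by 2.68 ± 0.18 and 1.89 ± 0.29. Slc14a2, a urea transporter, fell by 2.67 ± 0.15 and 1.91 ± 0.12. Of the 8 leading falls, Dmbx1 did not pass after GC centring, and Mapk15 did not pass with normexp correction. One context array lacked a value for 1 probe each of Olfr291 and Cyp27b1. The genes that fell were dimmer than those that rose, with a median level of 8.03 against 9.12 (10.1 over all kept probes), and their probes richer in GC, with a median of 48.3% against 38.3% (41.7%).

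**Figure D3:**
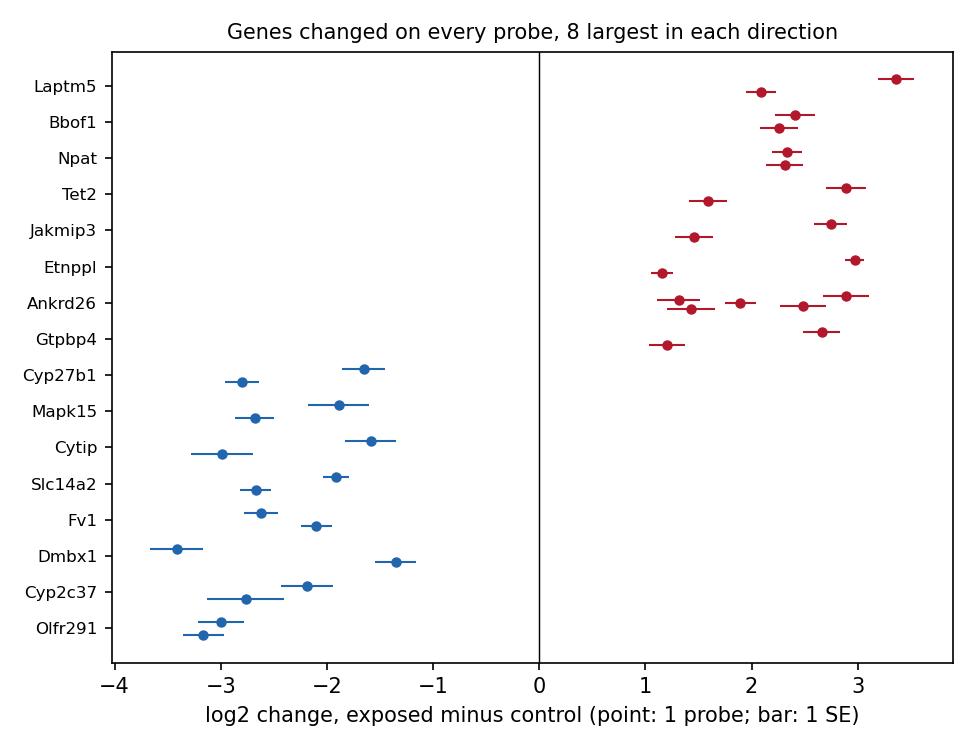
Log2 change, exposed minus control (horizontal axis), of each probe of the 8 genes with the largest mean rise and the 8 with the largest mean fall (vertical axis); a point is 1 probe and a bar 1 SE. Laptm5 leads the rises with 2.09 and 3.36, and Olfr291 the falls with -3.16 and -3.00.

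Fear-conditioned mice of the same age, whose arrays were scanned in the first run with the controls, give a reading of the same genes within that run. They share the 4 controls, so their values are set side by side, as group means of log2 signal with all 24 arrays normalized together (± SD, n = 4). Fos was 8.51 ± 0.51 in controls, 11.02 ± 0.82 in fear, 10.25 ± 0.24 in context and 9.99 ± 0.26 in shock-context mice. Egr2 was 9.15 ± 0.32, 10.63 ± 0.94, 10.75 ± 0.27 and 10.67 ± 0.20 in the same order, and Per1 11.69 ± 0.15, 12.59 ± 0.20, 12.81 ± 0.12 and 12.82 ± 0.20. For these 3 genes the fear arrays of the first run lay on the side of the exposed arrays. Sgk1 was 13.68 ± 0.15, 14.16 ± 0.21, 14.92 ± 0.23 and 14.91 ± 0.09, with fear in between. Jund was 15.39 ± 0.08 in controls and 16.03 ± 0.08 in fear, and 14.77 ± 0.13 and 15.01 ± 0.08 in context and shock-context mice, so the fear and exposed means lay on opposite sides of the control mean.

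For several multi-probe genes the fear arrays lay near the controls. The second Laptm5 probe was 7.14 ± 0.40 in controls, 7.89 ± 0.40 in fear, 10.48 ± 0.13 in context and 10.21 ± 0.30 in shock-context mice. The second Npat probe was 9.502 ± 0.32, 9.99 ± 0.09, 11.93 ± 0.11 and 11.71 ± 0.23, and the first Olfr291 probe 10.05 ± 0.45, 9.49 ± 0.18, 6.93 ± 0.12 and 7.13 ± 0.31. The second Tet2 probe was 6.29 ± 0.26, 6.06 ± 0.35, 9.28 ± 0.10 and 8.87 ± 0.41. In these 4 probes the 2 groups of the first scan run differed from each other by less than each differed from the groups of the second. The 4 are a selection, no count over the other probes is given, and the part of the scan run was not tested. On the first Slc14a2 probe fear lay nearer to the exposed groups, with 13.18 ± 0.39 in controls, 11.32 ± 0.13 in fear, 10.59 ± 0.16 in context and 10.41 ± 0.16 in shock-context mice.

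Probes of 1 gene could disagree widely. Glul, glutamine synthetase of astrocytes, has 3 kept probes on chromosome 1 (mm9, plus strand). The probe at 155755785 to 155755844 read 11.96, 11.88, 12.20 and 12.16 on control arrays and 8.60, 8.73 and 10.58 on exposed arrays, the last a shock-context array. It fell by 3.04 ± 0.30, or 8.22-fold (limma adjusted p = 1.47e-06), without overlap. The probe at 155751765 to 155751824 changed by -0.09 ± 0.12 (adjusted p = 0.512) and the one at 155756750 to 155756809 by -0.20 ± 0.11 (adjusted p = 0.115). Under 75th percentile scaling this last value was -0.64 and passed. On the middle probe fear mice, of the first scan run, read 8.39 ± 0.35 against 11.62 ± 0.16 in controls. Gfap less Glul accordingly ran from -0.03 to 3.72 over combinations of probes, and Gfap itself, the astrocyte filament gene, changed by 0.68 ± 0.09, 0.39 ± 0.09 and -0.13 ± 0.15 on its 3 probes.

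Per2 rose by 0.98 ± 0.08 on a probe at chr1:93313046-93313105 (mm9, minus strand), from 10.49, 10.38, 10.70 and 10.36 on control arrays to 11.29, 11.48 and 11.57 on exposed arrays. On the other probe, at chr1:93336538-93336597, it fell by 2.501 ± 0.14, from 9.57, 9.65, 10.08 and 9.80 to 6.93, 7.28 and 7.76. Neither pair of groups overlapped. After GC centring the values were 0.81 and -1.97. Nr1d1 changed by -0.20 ± 0.12 (adjusted p = 0.175), -1.73 ± 0.14 and -2.17 ± 0.17 on its 3 probes. Fmn2, a formin that nucleates actin, gave 0.33 ± 0.10 and -0.82 ± 0.14 on its 2 probes, the first turning to -0.09 after GC centring. Prkca changed by 0.50 ± 0.09, or 0.08 after GC centring (adjusted p = 0.461).

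**Figure D4:**
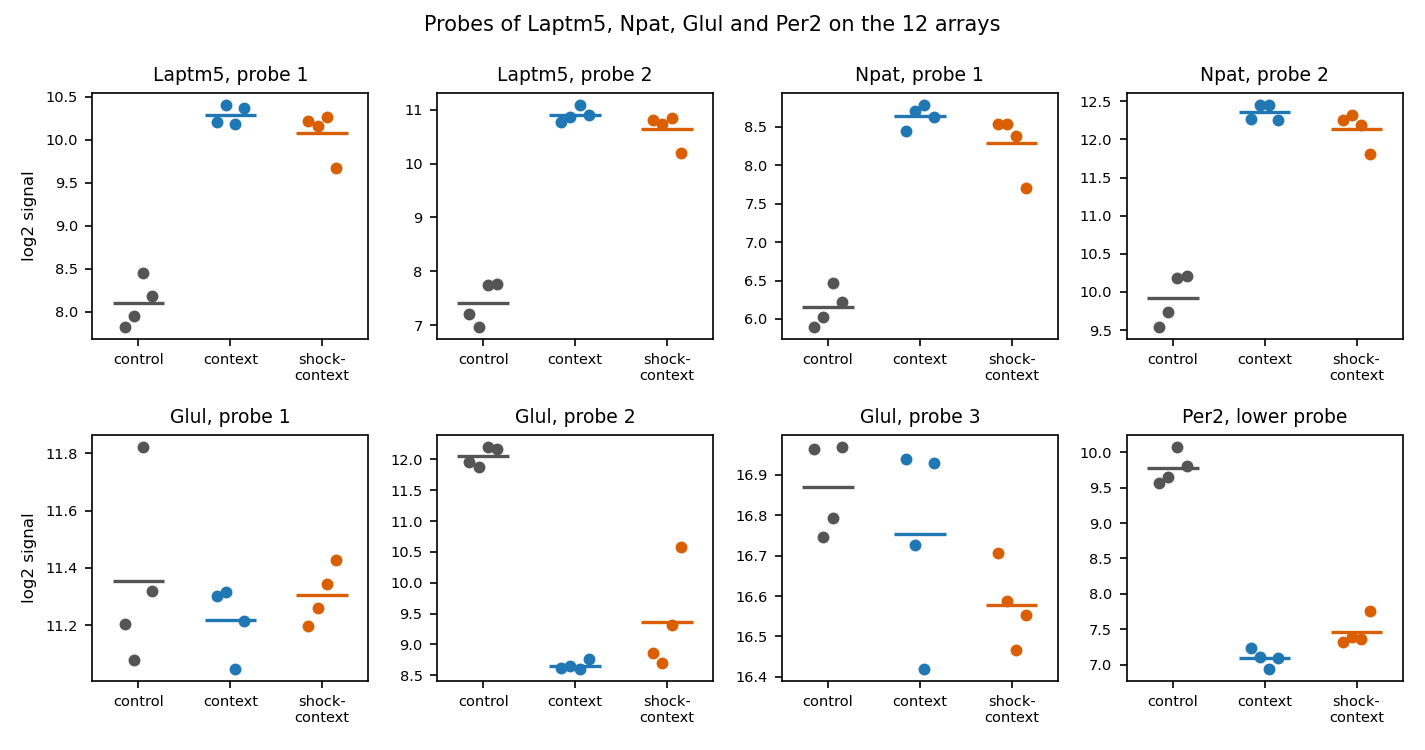
Log2 signal (vertical axis) on the 12 arrays by group (horizontal axis), 1 panel for each kept probe of Laptm5, Npat and Glul and for the Per2 probe that fell, each with its own vertical scale; a point is 1 array and a bar the group mean. Both probes of Laptm5 and of Npat moved up, 1 of 3 Glul probes fell by 3.04, and shock-context replicate 4 lay closest to the controls on the Laptm5, Npat and falling Glul and Per2 probes.

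The change of a probe went with its base composition. The median change was 0.71 for probes of 30% GC or less, then 0.35, 0.13, -0.10 and -0.31 in steps of 5%, and -0.44 above 50%. Low-GC less high-GC probes gave -1.11 to -0.52 on control arrays and -0.03 to 0.60 on exposed arrays. With probes ranked by mean level in 10 equal groups, 43.7% of the second dimmest group were called with a change of 1 or more, against 3.34% of the brightest. Odorant receptor genes, which are chiefly expressed in the nose, were examined as a family. Of 957 probes on the array 247 were kept, and 239 of these were lower (33.5% of all probes), 221 of them by 1 or more (9.97%), with 1 higher and a median change of -1.95. Their median signal was 9.16 to 9.68 on control arrays and 6.83 to 7.68 on exposed arrays. Vomeronasal receptors gave 22 lower of 24 kept, at 8.63 to 9.07 against 6.68 to 7.74. Of the 64 genes that fell on every probe, 5 were odorant and 1 a vomeronasal receptor. The E1A spike-in RNAs, added in known amount, differed between the sides by -0.44 to 0.41 for the 7 of 10 in range on both sides.

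**Figure D5:**
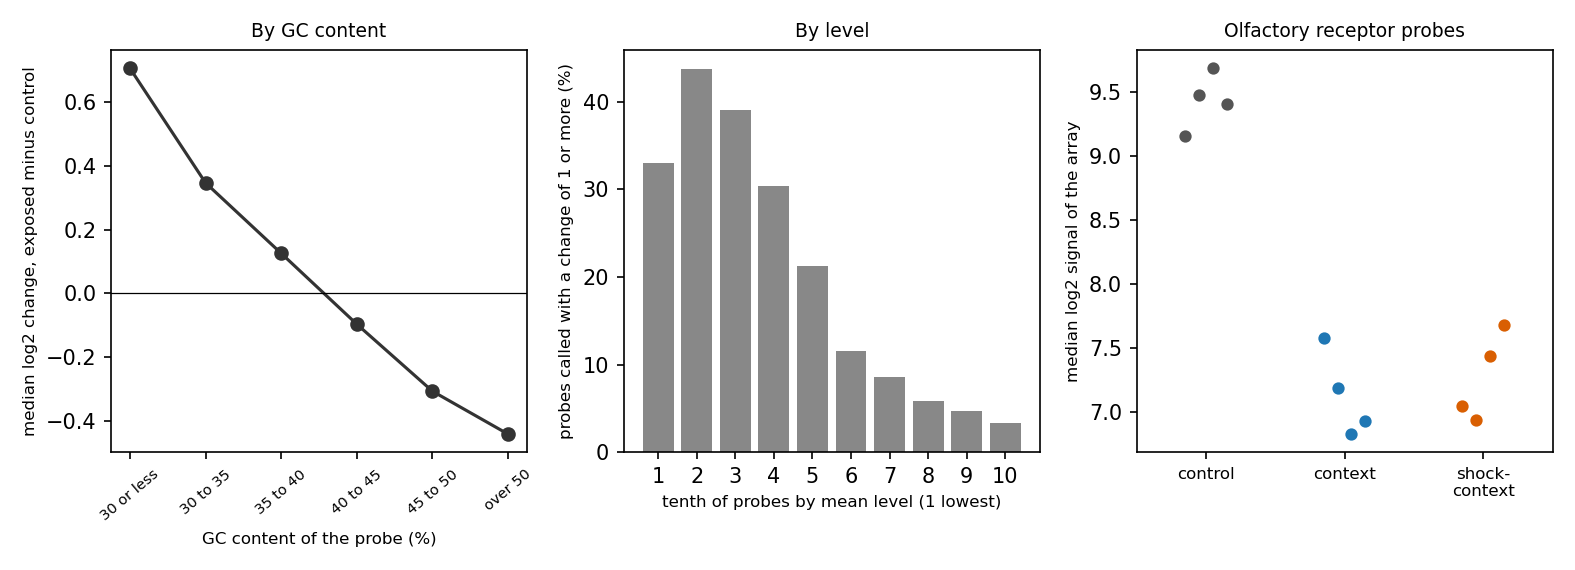
Left, median log2 change (exposed minus control) by GC content of the probe; middle, share of probes called with a change of 1 or more (%) in 10 equal groups by mean level; right, median log2 signal of the kept odorant receptor probes on each array, by group. The median change ran from 0.71 at low GC to -0.44 at high GC, and the odorant receptor medians were 9.16 to 9.68 on control arrays and 6.83 to 7.68 on exposed arrays.

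Of 30 presynaptic vesicle genes all were kept, 10 higher and 3 lower (43.3% called, against 64% of all genes), 3 of them higher and 1 lower by 1 or more. Nsf, the ATPase that takes fusion complexes apart, rose by 1.77 ± 0.14 and 1.59 ± 0.16 on its 2 probes, and Sv2a, a vesicle glycoprotein, by 1.03 ± 0.15 and 0.97 ± 0.19. Syn1, a vesicle-tethering synapsin, rose by 1.22 ± 0.25 on a probe of 81.7% GC and changed by 0.10 ± 0.11 on the other (adjusted p = 0.426), and Syn3 fell by 1.45 ± 0.20 and 1.61 ± 0.25. Of 25 postsynaptic scaffolds 24 were kept, 12 higher and 6 lower (75% called), 3 higher and 1 lower by 1 or more. Dlg4, the PSD-95 scaffold, rose by 1.65 ± 0.21 and 0.59 ± 0.10, Ddn, dendrin, by 1.49 ± 0.13, and Dlgap2 by 1.79 ± 0.14 on its brighter probe with -1.21 ± 0.17 on the other. Dlg4 also read high in fear mice, at 12.07 ± 0.03 on its brighter probe against 9.73 ± 0.59 in controls. Ionotropic glutamate receptors had 6 higher and 6 lower of 15, GABA-A subunits 3 higher and 7 lower of 13, metabotropic glutamate receptors 3 and 2 of 7, voltage-gated potassium channels 8 and 7 of 26, formins 4 and 5 of 14, and histone deacetylases and sirtuins 8 and 4 of 25.

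Housekeeping programmes had more lower than higher members, by small amounts. Among all genes with a symbol, too, 40.1% were lower and 24% higher. Of 66 cytosolic ribosomal protein genes 6 were higher and 33 lower (50%, where 40.1% of all genes were lower), with a median of -0.20 and changes from -0.97 to 1.39. On the brightest probe of each gene the smallest adjusted p was that of Rpl12 (-0.61 ± 0.08, limma adjusted p = 2.03e-05). After GC centring the split was 16 higher and 18 lower and the median 0.06. Of 66 oxidative phosphorylation genes 10 were higher and 34 lower, with a median of -0.22. GC centring gave 7 and 27, a lower share of 40.9% against 40.1% of all genes. Atp5k, a subunit of ATP synthase, fell by 0.79 ± 0.10 and Atp5a1, its catalytic-core partner, rose by 0.69 ± 0.09 on its brighter probe and changed by 0.02 ± 0.09 on the other (adjusted p = 0.839). Cholesterol synthesis had 6 higher (24%) and 11 lower (44%) of 25, near the shares of all genes. Heat shock and unfolded protein genes had 12 higher and 8 lower of 37, with Atf4, the stress-response factor, up by 0.99 ± 0.12, Xbp1 up by 0.65 ± 0.10, and the cytosolic chaperone Hspa8 at 0.16 ± 0.08 on its brighter probe (adjusted p = 0.118) and up by 1.05 ± 0.09 on the other.

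Markers of the labelled tissue were counted. All 26 hippocampal excitatory markers had a probe above background on all 12 arrays. Their mean level was 13.0 to 13.2 on control and 13.0 to 13.1 on exposed arrays. All 16 neocortex markers, all 17 ependymal and meningeal markers and 15629 of 19822 genes on the array also had such a probe. The count therefore does not tell tissues apart. Of the hippocampal markers 7 were higher (26.9%) and 12 lower (46.2%), where 24% of all genes were higher and 40.1% lower. Prox1, of dentate granule cells, rose by 0.88 ± 0.17 on its brightest probe, and Nr3c2, the mineralocorticoid receptor, fell by 1.09 ± 0.14 on its brightest. Markers of other cells and of neighbouring tissue were also counted. Choroid plexus markers had 3 higher and 5 lower of 25, with mean levels of 11.9 to 12.3 and 11.5 to 12.6, and Ttr, the transthyretin gene that leads that list, changed by 0.47 ± 0.26 (adjusted p = 0.125). Thalamus had 3 higher and 6 lower of 19, striatum 2 and 4 of 12, neocortex 5 and 6 of 16, ependyma and meninges 6 and 6 of 17, and blood 1 and 2 of 8. Their part in the results was not tested.

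Of all genes 24% were higher and 40.1% lower (64% called), and 23.1% and 40.1% after GC centring. Among glia, 10 of 24 oligodendrocyte and myelin markers were higher (41.7%) and 3 lower (12.5%), and 14 and 2 after GC centring. Their mean levels were 12.3 to 12.4 on control and 12.5 to 12.7 on exposed arrays. Mbp, myelin basic protein, rose by 1.07 ± 0.07, 1.33 ± 0.13 and 0.38 ± 0.09, and Mog by 0.61 ± 0.09. Microglia markers had 3 higher and 9 lower of 19 (63.2% called). Trem2, a lipid receptor (-0.66 ± 0.09 and -0.48 ± 0.09), its adaptor Tyrobp (-1.12 ± 0.12) and the related adaptor Fcer1g (-1.38 ± 0.12 and -0.83 ± 0.10) fell on every kept probe, while Laptm5, also on that list, and Itgam (0.79 ± 0.09 and 1.28 ± 0.11) rose. Astrocyte markers had 8 higher and 5 lower of 20, with Aqp4, the water channel of their endfeet, up on all 3 probes (1.09 ± 0.12, 0.76 ± 0.15 and 0.79 ± 0.09). Endothelial and mural markers had 12 higher and 6 lower of 24, with Pecam1 up by 1.01 ± 0.10 and Cldn5 down by 1.28 ± 0.15, and interneuron markers 5 and 4 of 19.

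Some probes were above background on 1 side alone. They numbered 46 on all exposed and no control arrays and 2476 the other way, 17 and 1678 of them with a gene symbol. Cdc42bpa, a kinase of the actin skeleton named after its value was seen, was at least 21.1-fold higher on exposed arrays on such a probe, and Coq10b, a coenzyme Q protein among the activity-induced genes, at least 8.58-fold. The 3 kept Coq10b probes changed by 0.63 ± 0.14, 0.53 ± 0.13 and 0.19 ± 0.10 (the last adjusted p = 0.104). Of those above background on control arrays alone, Col3a1, a fibrillar collagen, was at least 3.23-fold and Grin3a, a glutamate receptor subunit, at least 2.38-fold lower on exposed arrays. Each bound sets the bright group's mean against the lowest detectable signal.

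The pooling of the 2 exposures could be examined within the second scan run, where both lay on each slide. Shock-context against context gave 0 called probes (0%) by limma, with 1493 (5.03%) at an unadjusted p under 0.05 and a smallest adjusted p of 0.880. That fit had no term for slide, so differences between slides stayed in its error and in the intervals below. A fit of this contrast with slide was not run, and 0 calls do not show the exposures to be alike. Shock-context less context was -0.27 for Fos (95% interval -0.78 to 0.25), -0.08 for Egr2 (-0.46 to 0.31), -0.02 for Sgk1 (-0.28 to 0.25) and 0.01 for Per1 (-0.24 to 0.27). For Jund it was 0.25 (0.05 to 0.44) and for the middle Glul probe 0.70 (0.04 to 1.37), neither passing the adjustment. Against the shared controls, context differed at 64% of probes and shock-context at 58.9%.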

How the data were processed

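The authors deposited 1 scanner file per array, written by Agilent's Feature Extraction software (9.5.3.1, per the file headers), with spot intensity as a processed, background-subtracted signal, outlier marks, detection marks and mm9 positions. The deposited value table was read as log2, from its values; its scale, centring and filter are otherwise unstated, and it served as an alternative. Here log2 processed signals were taken for 12 arrays, outlier spots set to missing, spots of a probe averaged, probes above background on all 12 kept and arrays quantile normalized. No pseudocount was used. Exposed (8) and control (4) means were fitted with 10 residual degrees of freedom by limma 3.58.1 under R 4.3.3 (statmod 1.5.0 for the random block), two-sided, Benjamini-Hochberg over all kept probes, threshold 0.05; ± is the SE of that fit unless SD is stated. Pairs of genes were compared by exact permutation. Lists are counts and medians with no test of their own.

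The probes' names come from RefSeq GRCm38.p6: 25097 matched by accession, 6333 by symbol and 1640 by synonym, and 8104 kept the file's name or none. The members, gene lists and pairs were chosen with earlier results of these data known. Named genes are the 8 largest multi-probe rises and falls, up to 4 members of smallest adjusted p in each list with the defining cell type markers, the passing and panel pairs, a panel of 22 genes, and up to 4 probes above background on 1 side alone. Further members are named where a role is described, chosen after their values were seen. Alternatives covered scaling, background correction, filters, outlier spots, deposited values, slide and replicate blocks, moderation, which arrays entered and each array left out. Centring by probe GC content, in bins of 5%, was chosen after seeing the data. The fit was tested on simulated data. The number of arrays limits the precision. The values of 1 gene are not reported here.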

Additional observations from a re-analysis of the deposited data

Results flagged for a closer look

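Among 210 groups of 4 arrays checked, for 70 probes of 38 named genes, 4 held an array far from the rest, where chance gives about 1 in 20 groups. Egr1 read 14.52 in context replicate 2, against 14.95 to 14.97 in the other context mice. Fmn2 read 10.73 in context replicate 3 on its first probe, against 11.04 to 11.06. Gtpbp4 read 11.19 in context replicate 3 on its second probe, against 10.94 to 10.97. Npas4 read 9.20 in shock-context replicate 1, against 8.98 to 9.02. Outside the kept probes, 46 were well above background on all exposed arrays and on no control array.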

How the results depend on the processing

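Under 29 alternatives, the probes called (16525 to 27781) and the list members called (332 to 459) stayed within 1.5 times the values reported. Probes called with a change of 1 or more rose from 5981 to 11749 with the looser filter and 12796 with none, and multi-probe genes from 118 to 341 and 349. Multi-probe genes were 56 with normexp correction and 55 in the deposited values, and passing contrasts 10 and 9, as against 16. GC centring gave 10 contrasts and turned the sign of Fmn2 (-0.092), Gfap on its dimmest probe (0.41), Mt1 (0.42) and Nptx2 less Nptx1 (0.032). Of all called probes 50.2% were higher, and 38.2% under 75th percentile scaling, which moved the median change of all probes to -0.13. The cause of these shifts was not tested.

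Leaving out 1 array at a time gave 19097 to 20103 probes, 5687 to 6294 by 1 or more, 115 to 136 multi-probe genes, 13 to 17 contrasts, 396 to 436 list members, 17535 to 18909 for context, 15422 to 17844 for shock-context and 0 between them. Probes on exposed arrays alone ran from 46 to 99, with 76 without control replicate 4 and 99 without shock-context replicate 4; those on control arrays alone ran from 2496 to 2839. With the slide as a random block 17066 probes passed, and with control arrays 1 and 2, and 3 and 4, averaged 18236.

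Same-numbered arrays did not deviate together (correlations -0.41 to 0.26). Between context and shock-context every such correlation was negative (-0.41 to -0.28), and there same-numbered arrays lay on different slides. The part of the slide was not tested. With the replicate number as a block 19111 probes, 5976 by 1 or more, 118 multi-probe genes, 16 contrasts and 400 list members passed.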
